A study of Mus musculus with 8 samples.

Results

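Almost all proteins of the mitochondrion are made in the cytosol and brought in by a relay of machines. The TOM complex of the outer membrane is the entry gate, the SAM complex folds barrel-shaped proteins into the outer membrane, small TIM chaperones carry hydrophobic clients across the intermembrane space, and the TIM23 channel with its Hsp70 motor pulls proteins into the matrix, where presequences are cut off and chaperonins fold the product. ERRα (*Esrra*) is an orphan nuclear receptor known for binding genes of oxidative metabolism, and skeletal muscle and liver are both rich in mitochondria. Here the genes of this import machinery were followed through 4 lists of ERRα ChIP-seq peaks.

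The genes were chosen by name: every gene that begins with *Timm* or *Tomm*, together with *Pam16*, *Dnajc19*, *Grpel1*, *Grpel2*, *Hspa9*, *Hspd1*, *Hspe1*, *Samm50*, *Mtx1*, *Mtx2*, *Pmpca* and *Pmpcb*, and a peak was counted when its centre lay within 20000 bp of the transcription start site (TSS) to which it was annotated. This gave 33 genes of the 16988 with such a peak in any list, and 134 peaks of 63890. The lists came from WT and ERRα 3SA phospho-mutant male mice on a C57BL/6N background, aged 2 to 3 months; the mutant carries alanine in place of serines of ERRα, and the antibody was the same throughout. One tissue was liver and the other was gastrocnemius with soleus muscle, and the mice were otherwise described alike. The study's methods prepared the tissues differently: muscle nuclei were isolated before crosslinking, and sonication and the amount of chromatin also differed. Preparation therefore cannot be told apart from tissue. Each list came from 1 library that pooled 3 ChIPs according to the labels (the study's methods give a different number), made from a pool of 2 livers or of muscle from 5 mice, so a difference between genotypes or tissues has no replicate check here and no test was made.

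The WT muscle list held 25427 peaks, the ERRα 3SA muscle list 50647, the WT liver list 21813 and the ERRα 3SA liver list 29040. Peak scores were not compared between lists: each peak was ranked by score within its list, ties taking the best rank, and the rank was also given as a percentage of the list. The lowest score, 30, was held by 33.6% of peaks in the WT muscle list, which share rank 16894, and by 35.2% in the mutant one, which share rank 32824. Read depth is unknown from the lists. Of 8 muscle markers, 5 had a peak within 20000 bp in WT and 8 in ERRα 3SA muscle, and 4 had one in WT and 5 in ERRα 3SA liver. Of 8 liver markers, 2, 3, 3 and 4 did. These counts separate the tissues little, and *Alb*, *Cps1* and *Fgb* had no peak in any list. Where values follow without a list name, they stand in the order WT muscle, ERRα 3SA muscle, WT liver, ERRα 3SA liver.

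The ERR response element (ERRE) was searched as TCAAGGTCA on both strands, and several import gene intervals held it. Its share in the central 300 bp was 7.41, 5.26, 24.1 and 15.0% of import peaks within 20000 bp. Over all such peaks the shares were 4.45, 4.86, 15.2 and 14.9%. The windows below are shown because each lies in an interval that the genotypes of at least 1 tissue shared. They read along the motif strand, with the motif in capitals and 10 bases on either side, in mm10 coordinates. In *Timm10* the window is chr2:84827390-84827418 (minus strand), in *Timm9* chr12:71136256-71136284 (plus), in *Tomm5* chr4:45109058-45109086 (plus), in *Dnajc19* chr3:34076480-34076508 (minus), in *Timm50* chr7:28318962-28318990 (minus), in *Timmdc1* chr16:38506360-38506388 (minus), in *Tomm40* chr7:19718369-19718397 (minus) and in *Hspd1* chr1:55075503-55075531 (minus).
Timm10: agtgtccagcTCAAGGTCActcgcgatgt
Timm9: gtctgacagcTCAAGGTCAtcgagtggct
Tomm5: acgaatgagtTCAAGGTCAaggtggaaac
Dnajc19: ttcgattcacTCAAGGTCActaaaggtta
Timm50: aaggacattgTCAAGGTCAtcgatggccc
Timmdc1: ggtcagaggtTCAAGGTCAttctcagctc
Tomm40: ggtcaggagtTCAAGGTCAtccttggcta
Hspd1: gaccaggagtTCAAGGTCAtcctaaaata

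The *Timm10* element lay 379 to 387 bp downstream of the gene's RefSeq start, inside the interval of all 4 lists and 32 to 90 bp from the interval centres. The *Timm9* element lay in the 3 lists that bound *Timm9*, in intervals annotated as promoter-TSS. The *Tomm5* element also lay in intervals of all 4 lists, but 156 to 861 bp from their centres, at -963 to -955 bp from the start. The *Dnajc19*, *Timmdc1* and *Tomm40* elements belonged to liver intervals, whereas that of *Timm50* lay in both liver lists and ERRα 3SA muscle and that of *Hspd1* in WT liver and ERRα 3SA muscle. The liver peaks of *Timmdc1* and *Tomm40* that hold the motif were centred in SINE repeats in the deposited annotation (ID_B1 or PB1D7). The WT liver interval of *Hspd1* with the motif was centred in a LINE repeat (Lx3C). That of *Samm50*, whose element is described below, was centred in a SINE repeat (B3) in WT liver. The ERRα 3SA muscle intervals of *Hspd1* and *Samm50* with the motif were not annotated to repeats.

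A further element stood at a gene that no list names. *Timm8b* encodes a small TIM chaperone and begins beside *Sdhd*, a subunit of succinate dehydrogenase. A strong interval crossed the *Timm8b* start in all 4 lists, and in all 4 it was annotated to *Sdhd*. The rank in muscle was 391 (WT) and 661 (ERRα 3SA) and in liver 423 (WT) and 471 (ERRα 3SA), or the best 1.54, 1.31, 1.94 and 1.62% of the lists. The RefSeq promoter window of *Timm8b* (GRCm38.p6, chr9:50603651-50603950, plus strand, 300 bases from 250 before the start to 50 after it) is shown because it holds the motif, in capitals, at -96 to -88 bp from the start.
Timm8b promoter: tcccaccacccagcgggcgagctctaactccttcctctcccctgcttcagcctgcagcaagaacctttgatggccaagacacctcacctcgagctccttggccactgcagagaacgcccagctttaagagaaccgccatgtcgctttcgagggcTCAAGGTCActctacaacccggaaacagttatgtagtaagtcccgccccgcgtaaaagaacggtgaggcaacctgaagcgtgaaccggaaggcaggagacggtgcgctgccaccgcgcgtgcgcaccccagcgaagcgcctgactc

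Of the 33 protein-coding import genes with a promoter window in the RefSeq table, *Timm8b* was the only 1 with TCAAGGTCA there, against 0.377% of 17492 protein-coding genes. The ETS-type motif CCGGAAGT was held by 9 of the 33 windows (*Mtx2*, *Pmpcb*, *Timm10*, *Timm10b*, *Timm23*, *Timm29*, *Timm8a2*, *Timmdc1* and *Tomm70a*), or 27.3%, against 5.69% of all. The NRF1-type piece GCGCATGC was held by 2 (*Grpel1* and *Timm13*), or 6.06%, against 3.94%. Both strands were searched, none of the motifs contains another, and a match is a description of the sequence, not a bound site.

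Which import genes were bound was asked first. The rule names 38 protein-coding genes in RefSeq. Of these, 18 had a peak within 20000 bp in WT muscle, or 47.4% (Wilson 95% interval 32.5–62.7), against 34.5% of all 21887 protein-coding genes. In ERRα 3SA muscle 24 did, or 63.2% (47.3–76.6), against 48.0%. Both muscle intervals contain the value of all genes. In WT liver 20 genes did, or 52.6% (37.3–67.5), against 30.0%, and in ERRα 3SA liver 26 did, or 68.4% (52.5–80.9), against 37.7%. Both liver intervals lie above the value of all genes. With every list held to its best 21813 peaks, the muscle lists named 17 import genes in WT and 15 in ERRα 3SA. The liver lists named 20 and 25. In WT muscle this cut falls among the peaks tied at the lowest score, which share rank 16894. The count there depends on how ties are broken, so the order of the muscle lists at equal length is not settled. The Wilson intervals above, like those that follow, cover counting error only.

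The import genes stood further from other genes near the TSS. Within 1000 bp, 15 import genes had a peak in WT muscle (39.5%, 25.6–55.3) against 13.7% of all protein-coding genes. In ERRα 3SA muscle the number was 13 (34.2%, 21.2–50.1) against 16.2%. In liver it was 14 for WT (36.8%, 23.4–52.7) against 9.26%, and 16 for ERRα 3SA (42.1%, 27.9–57.8) against 14.4%. With a score of at least 100 within 20000 bp, 4 import genes were counted in WT (10.5% against 2.87%) and 9 in ERRα 3SA muscle (23.7% against 5.5%), and in liver 12 for WT (31.6% against 8.02%) and 14 for ERRα 3SA (36.8% against 11.9%). All 4 intervals lay above the share of all genes for each of these rules.

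Complex I genes (*Nduf*), a comparison family of 49 genes, were bound within 1000 bp in 53.1% (WT) and 57.1% (ERRα 3SA) of genes in muscle, and 51.0% (WT) and 63.3% (ERRα 3SA) in liver. Mitochondrial ribosomal protein genes (*Mrpl* and *Mrps*, 78 genes) were bound in 23.1, 25.6, 24.4 and 34.6%, respectively. The import genes thus lay between these families in each list, and their intervals overlap those of both families.

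**Figure D1:**
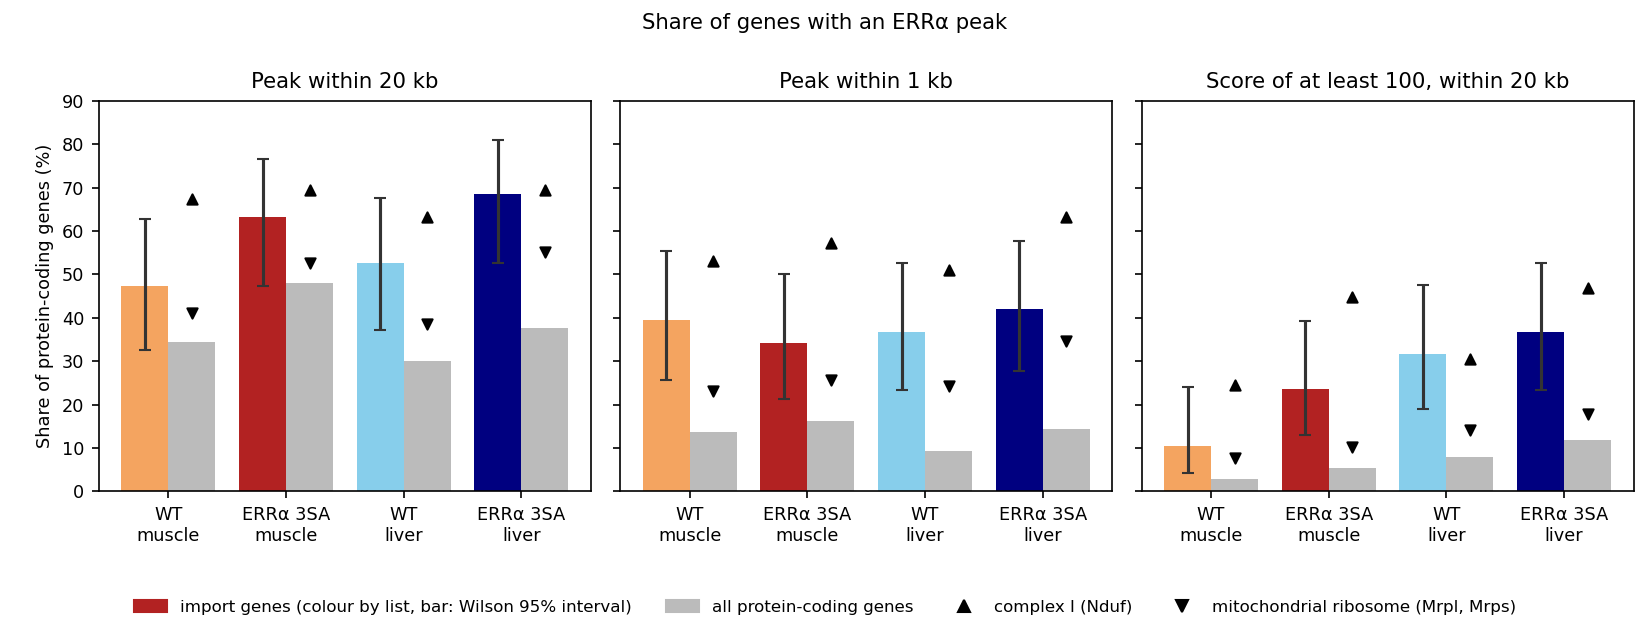
Share of protein-coding genes with an ERRα peak (y axis, %) in the 4 lists under 3 rules. Coloured bars are the 38 import genes with Wilson 95% intervals, grey bars all protein-coding genes, and triangles the complex I (upward) and mitochondrial ribosomal protein genes (downward); within 1000 bp the import genes range from 34.2 to 42.1% and all genes from 9.26 to 16.2%.

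The best peak of a bound import gene fell, at the median, in the best 10.9% of the WT muscle list (n = 19 genes) and 15.5% of the ERRα 3SA one (n = 25), and in the best 9.00% (WT, n = 20) and 15.0% (ERRα 3SA, n = 26) of the liver lists. Over all bound genes the medians were 39.1, 23.7, 37.6 and 34.0%. The 95% intervals of the import medians, from order statistics, were 6.07–66.4% and 4.24–38.7% in WT and ERRα 3SA muscle, which contain the values of all genes, and 5.07–28.5% and 5.99–27.3% in the liver lists, which do not. The medians of complex I were 7.10, 3.80, 19.0 and 7.93%, and those of the mitochondrial ribosome 16.0, 23.7, 31.4 and 38.6%. Bound import genes in the best 5% of the list numbered 4 of 19, 9 of 25, 4 of 20 and 5 of 26, beside 9.06, 11.3, 8.86 and 9.13% of all bound genes.

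**Figure D2:**
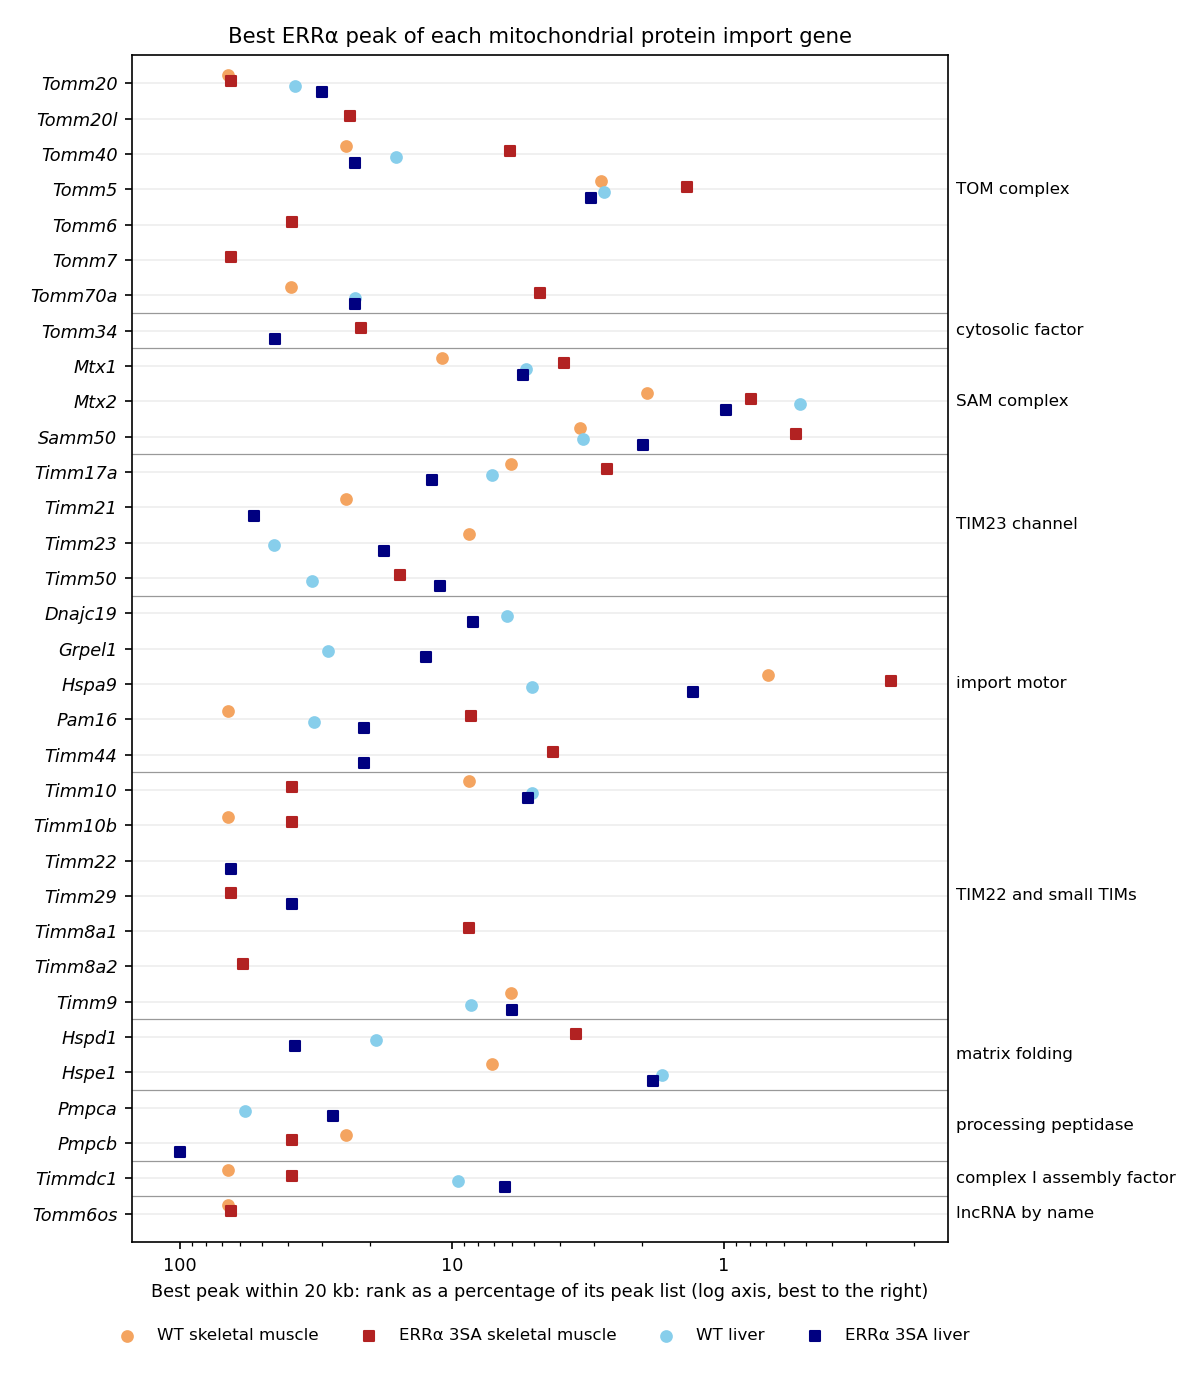
Best ERRα peak within 20000 bp of each bound import gene, as its rank in percent of the list (x axis, log, best to the right), with genes grouped by role and colours and shapes for the lists. *Hspa9*, *Mtx2*, *Samm50* and *Tomm5*, and in liver also *Hspe1*, carry the best ranks, and genes without a symbol in a list had no peak there.

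By role, the SAM complex was the most fully bound. *Samm50*, the central sorting and assembly protein, and its partners *Mtx1* and *Mtx2* had a peak within 1000 bp in every list. *Mtx2* ranked 485 in WT and 402 in ERRα 3SA muscle, and 114 in WT and 286 in ERRα 3SA liver, and its WT liver peak was the best of any import gene in that list. Its intervals were chr2:74825702-74826443, chr2:74825680-74826539, chr2:74825686-74826555 and chr2:74825719-74826509, in that order, with centres 260, 297, 308 and 302 bp downstream of the TSS. *Samm50* ranked 862, 275, 718 and 576 at 346, 367, 350 and 322 bp from the TSS, with intervals chr15:84192238-84192921, chr15:84192194-84193007, chr15:84192175-84192991 and chr15:84192119-84192991. *Mtx1* ranked 2776, 1955, 1165 and 1597 at 624, 536, 645 and 686 bp, with intervals chr3:89213537-89213885, chr3:89213479-89214119, chr3:89213423-89213958 and chr3:89213411-89213887. All 3 sites were thus called at nearly the same place in both genotypes and both tissues.

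*Samm50* carried further peaks, 4 in WT and 3 in ERRα 3SA muscle, and 3 in WT and 2 in ERRα 3SA liver. The site 4373 to 4763 bp downstream, which holds TCAAGGTCA (chr15:84196458-84196466), was called in ERRα 3SA muscle and both livers. It was absent from the WT muscle list.

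The import motor draws the precursor through the TIM23 channel. Its ATPase *Hspa9* (mortalin) had the best-ranked import peak of both muscle lists, 175 in WT and 123 in ERRα 3SA muscle, with liver ranks of 1107 (WT) and 378 (ERRα 3SA). The intervals were chr18:34953711-34955113, chr18:34953838-34955029, chr18:34953933-34954926 and chr18:34954101-34954902, with centres -61, -82, -78 and -150 bp from the TSS. The ERRE occurred in the interval of all 4 lists, 118 to 208 bp from the centre. As a share of the list, *Hspa9* stood in the best 0.688, 0.243, 5.07 and 1.30%.

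Other motor parts were bound less evenly. *Dnajc19*, a J-protein of the motor, had a peak 4825 bp (WT) and 4816 bp (ERRα 3SA) downstream of its TSS in liver, ranked 1369 and 2437, and none within 20000 bp in muscle. *Grpel1*, the nucleotide exchange factor of the Hsp70, had a liver peak at 494 bp (rank 6227, WT) and 420 bp (rank 3600, ERRα 3SA), and 3 further peaks in ERRα 3SA liver. Its paralogue *Grpel2* had none in any list. *Pam16*, the regulator of the J-protein, had peaks in all 4 lists, but far downstream in ERRα 3SA muscle and both livers (8780, 8787 and 8762 bp; ranks 4317, 6999 and 6120) and elsewhere at the lowest score in WT muscle.

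*Timm44* tethers the Hsp70 to the channel and was named within 20000 bp in the ERRα 3SA lists only. In muscle its peak lay at 8212 bp (chr8:4267242-4268145, rank 2146) and in liver at -83 bp (chr8:4275784-4276192, rank 6120), so these are different sites. At the muscle site the WT muscle list also held a peak (chr8:4267261-4267556, rank 2194), and the WT liver list another (chr8:4266867-4267970, rank 2587), both annotated to the neighbouring *Ctxn1*. An interval of the ERRα 3SA liver list overlapped the muscle site too. The muscle difference in *Timm44* is therefore one of gene name, whereas the promoter peak was called in ERRα 3SA liver alone.

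Within the TIM23 channel, *Timm17a* was bound within 1000 bp in all 4 lists. It ranked 1543, 1356, 1549 and 3426 at 206, 139, 183 and 224 bp, with intervals chr1:135313351-135313711, chr1:135313311-135313886, chr1:135313214-135313895 and chr1:135313177-135313849. *Timm23*, the pore itself, was named in WT muscle (chr14:32201532-32202038, rank 2194, 106 bp), WT liver (chr14:32201528-32201935, rank 9851, 160 bp) and ERRα 3SA liver (chr14:32201575-32202153, rank 5141, 27 bp). In ERRα 3SA muscle a peak of rank 1050 lay 62 bp from its start (chr14:32201422-32202485) but was annotated to *Parg*, which starts beside it. The *Timm23* site was therefore present in all 4 lists.

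The receptor *Timm50* had a peak well upstream of its TSS, within a transcript of another gene, in ERRα 3SA muscle (-7383 bp) and in the livers (-7010 bp in WT, -7081 bp in ERRα 3SA), ranked 7851, 7108 and 3231. It had a promoter peak at 286 bp in ERRα 3SA liver alone, ranked 15013. *Timm21*, which links the channel to the outer membrane, had 2 peaks in WT muscle, both ranked 6260, and 1 in ERRα 3SA liver, at -514 bp and ranked 15499. *Timm17b* had none in any list.

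Of the TOM complex, *Tomm40*, the channel, *Tomm5*, a small subunit, and *Tomm70a*, a receptor, had a peak within 1000 bp in every list. *Tomm5* ranked 719 (-728 bp), 696 (-748 bp), 605 (-97 bp) and 897 (-802 bp), as chr4:45108558-45109124, chr4:45108567-45109156, chr4:45107134-45109287 and chr4:45108518-45109313. The WT liver interval is a single broad one of 2154 bp, where the ERRα 3SA liver list has 2 intervals, one on either side of the start. This set the centres too far apart to pair, although the intervals overlap.

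*Tomm70a* ranked 9931 in WT and 2394 in ERRα 3SA muscle, and 4981 in WT and 6623 in ERRα 3SA liver, at 215, 106, 194 and 132 bp. Its intervals were chr16:57121636-57122222, chr16:57121465-57122176, chr16:57121527-57122290 and chr16:57121449-57122243. *Tomm40* ranked 6260 (311 bp), 3101 (399 bp), 3798 (568 bp) and 7095 (822 bp) at its promoter, as chr7:19714713-19715524, chr7:19714761-19715300, chr7:19714487-19715236 and chr7:19714007-19715208. A second *Tomm40* site upstream, at -3099 bp in WT and -2927 bp in ERRα 3SA liver, ranked slightly better in liver (3500 and 6623) and was not in the muscle lists. *Tomm20*, the presequence receptor, was bound in all 4 lists, but at 4 different places and never ranked better than 30.1% of a list. *Tomm6*, *Tomm7* and *Tomm20l* were named in ERRα 3SA muscle alone, and *Tomm22* and *Tomm40l* in none. In WT muscle a peak of rank 10219 lay 506 bp from the *Tomm40l* start (chr1:171221521-171222494). It was annotated to *Apoa2*, 1 of the liver markers counted above. In the other lists the nearest peak to that start lay 7526, 7664 and 1504 bp away.

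The small TIM chaperones *Timm9* and *Timm10* form 1 complex. *Timm10* was bound in all 4 lists at ranks 2194, 19604, 1107 and 1531, with intervals chr2:84827179-84827809, chr2:84827159-84827727, chr2:84826930-84827813 and chr2:84827049-84827901, centred 473, 422, 350 and 454 bp downstream of the TSS. *Timm9* ranked 1543 (285 bp) in WT muscle, with liver peaks at 1857 (WT, 306 bp) and 1739 (ERRα 3SA, 337 bp). It had no peak in ERRα 3SA muscle, where the nearest one lay 7774 bp from its start. Both genes hold TCAAGGTCA at the site, and at both the ERRα 3SA muscle list was the lowest ranked or empty. *Timm10b* had a promoter peak in WT muscle and one at 11711 bp in ERRα 3SA muscle, both with weak ranks (16894 and 19604).

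*Timm29*, a TIM22 subunit, and *Tomm34*, a cytosolic cochaperone, were, with *Timm44*, the genes named within 20000 bp in both ERRα 3SA lists and in neither WT list. The ERRα 3SA lists are the longer ones. Over all genes, 5786 in muscle and 3811 in liver were named in the ERRα 3SA list and not in the WT list. The number of all genes with this pattern in both tissues is not given here. *Timm29* had peaks at -18479 bp (chr9:21573827-21574660) and -2859 bp (chr9:21589649-21590078) in muscle, both at the lowest score, and at -18594 bp (chr9:21573897-21574360, rank 11212) in liver. The WT liver list held a *Timm29* peak just past that distance, at -21185 bp (chr9:21571256-21571819, rank 12528). Near the *Timm29* start all 4 lists held a peak annotated to *Yipf2*, 542, 299, 1336 and 1208 bp away in the order used above. *Tomm34* had a peak at 366 bp in muscle (chr2:164070502-164070970, rank 10911). In liver it had 3, at 1838 bp (chr2:164069004-164069525, rank 13000), 16600 bp (chr2:164054238-164054766, rank 13000) and 17317 bp (chr2:164053650-164053920, rank 18865). No WT peak lay near the *Tomm34* start, and these peaks ranked between 21.5 and 65.0% of their lists.

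The remaining TIM22 and small TIM genes were bound sparsely. *Timm22*, the carrier channel, had 1 peak, in ERRα 3SA liver (-1239 bp, rank 18865). *Timm8a2* had 2 in ERRα 3SA muscle at ranks 29571 and 32824, and *Timm13* had none. The 1 peak named *Timm8a1*, in ERRα 3SA muscle, lies on chromosome 10, whereas RefSeq places the gene on chromosome X, so it belongs to a copy elsewhere in the genome.

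Proteins that reach the matrix are folded by the chaperonin *Hspd1* (Hsp60) with its lid *Hspe1* (Hsp10), whose genes start back to back. Peaks lay at this shared promoter in all 4 lists, but their name changed. It was called *Hspe1* in WT muscle (chr1:55088188-55088770, rank 1805, 331 bp), *Hspd1* in ERRα 3SA muscle (chr1:55086974-55088875, rank 1773, 8 bp) and *Hspe1* in ERRα 3SA liver (chr1:55087241-55089005, rank 531, -25 bp). In WT liver there were 2 intervals, which left the upstream of the RefSeq *Hspd1* starts in the gap between them, *Hspe1* (chr1:55088389-55089215, rank 368, 654 bp) and *Hspd1* (chr1:55086981-55088072, rank 4147, 406 bp). By gene name *Hspe1* left and *Hspd1* joined the ERRα 3SA muscle list, while every list held a peak within 1000 bp of both starts. A second *Hspd1* site, annotated as intergenic, was called in ERRα 3SA muscle (12226 bp), WT liver (12180 bp) and ERRα 3SA liver (12052 bp), and the element printed above lies in the first and second of these intervals.

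**Figure D3:**
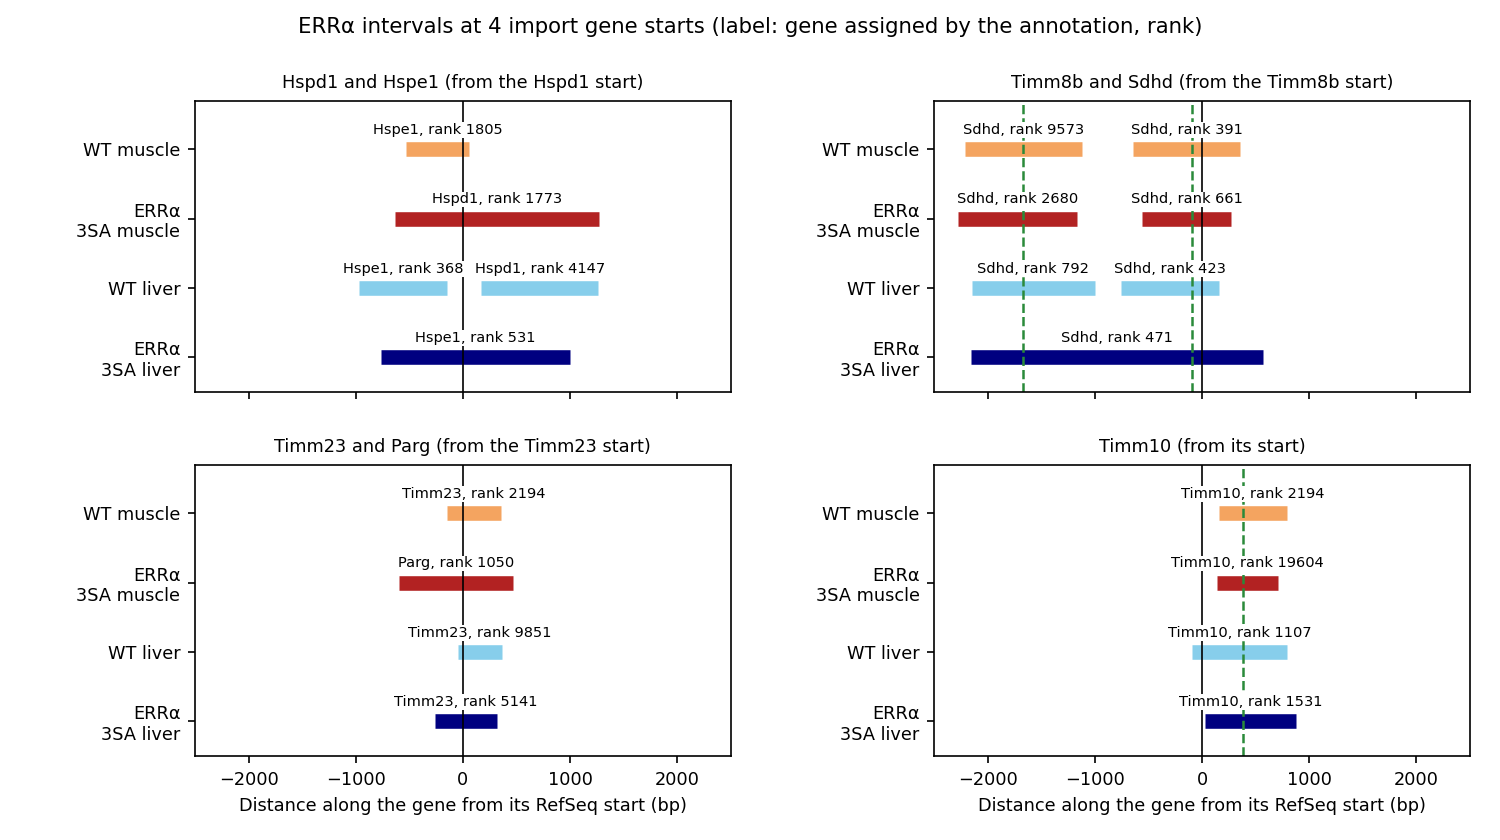
ERRα intervals (coloured bars, 1 row per list) along 4 import gene starts, as distance from the gene's RefSeq start in bp, with the assigned gene name and rank above each bar and TCAAGGTCA as dashed green lines. The *Timm8b* and *Timm23* starts are covered in all 4 lists although a neighbour takes the name in 4 and 1 of them, and the upstream *Hspd1* start is covered in 3 and flanked by 2 intervals in WT liver.

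The matrix processing peptidase cuts off presequences. Its subunits had weak peaks: *Pmpca* in WT liver (8387 bp, rank 12528) and, as its best, ERRα 3SA liver (8492 bp, rank 7934), and *Pmpcb* in both muscle lists and ERRα 3SA liver, at best ranks 6260, 19604 and 28907. The complex I assembly factor *Timmdc1* enters by its name prefix only. It was bound in all 4 lists, with a liver site at 16217 bp (WT) and 16240 bp (ERRα 3SA) ranked 2070 and 1853. *Tomm6os*, a long non-coding RNA, had peaks in the muscle lists at the lowest score.

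Of 12 other import genes that the rule leaves out, 4 had a peak within 20000 bp in the WT list of either tissue and 7 in the ERRα 3SA list of either tissue, beside the 34.5, 48.0, 30.0 and 37.7% of all protein-coding genes given above. The best ranked was *Oxa1l*, the inner membrane insertase, at ranks 862, 855, 470 and 826. *Chchd4*, the oxidoreductase of the intermembrane space, ranked 2194, 1773, 3204 and 1531. *Mtx3*, a metaxin relative, ranked 2194, 32824 and 11020 in WT muscle, ERRα 3SA muscle and ERRα 3SA liver and had no peak in WT liver.

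How sites were placed was compared next. Of the import gene peaks within 20000 bp, 15 of 27 lay within 1000 bp of the TSS in WT muscle (55.6%, against 26.2% of all peaks within 20000 bp), and 15 of 38 did in ERRα 3SA muscle (39.5% against 17.4%). In liver 14 of 29 did for WT (48.3% against 20.6%) and 18 of 40 for ERRα 3SA (45.0% against 22.6%). Of complex I peaks 60.5, 44.4, 71.4 and 57.9% lay within 1000 bp, and of mitochondrial ribosome peaks 43.2, 32.8, 46.5 and 44.4%. For import genes the median rank of the best peak within 1000 bp was 8.63, 3.86, 6.22 and 8.89% of the list, against 40.2, 38.7, 32.6 and 38.6% for all genes bound there. In ERRα 3SA muscle 23 import peaks lay beyond 1000 bp, against 12 in WT muscle, while peaks within it numbered 15 in both lists. Peaks at the lowest score numbered 8 of 27 and 12 of 38 in the muscle lists, or 29.6 and 31.6%, near the 33.0 and 34.3% of all peaks.

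**Figure D4:**
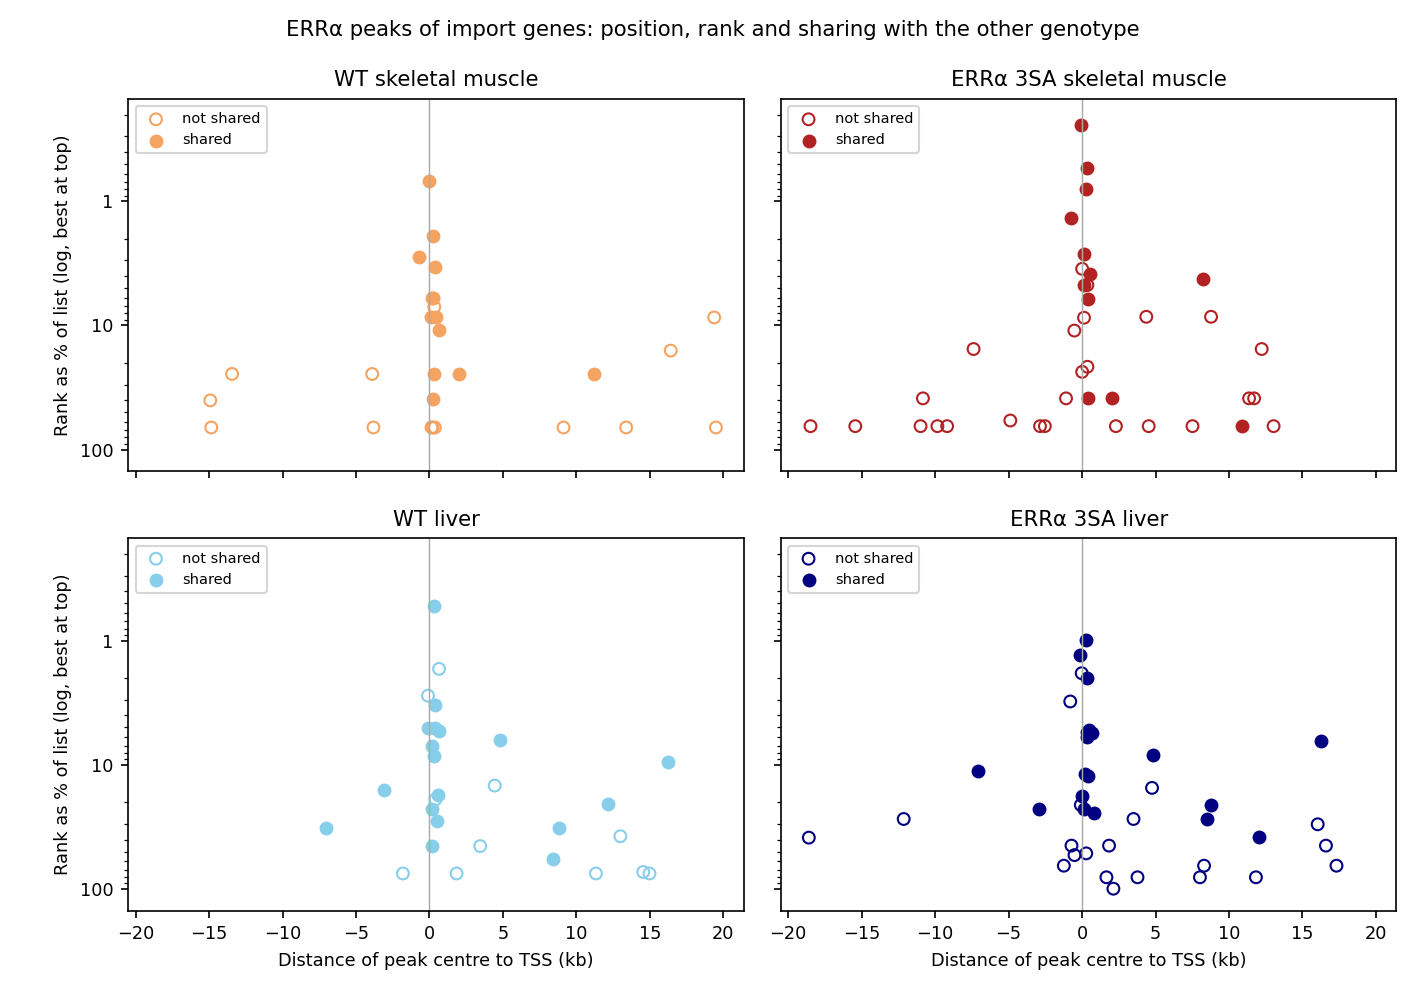
Import gene peaks of the 4 lists by distance to the TSS (x axis, kb) and rank in percent of the list (y axis, log, best at the top). Filled circles have a centre within 300 bp of a peak of the other genotype in the same tissue; the best ranks and most filled circles sit close to 0, and open circles spread to the sides.

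Sites were called shared when the centres lay within 300 bp, over the whole lists. In muscle 12 of 27 WT import peaks had an ERRα 3SA partner (44.4%, against 23.4% of all WT muscle peaks within 20000 bp), and 12 of 38 ERRα 3SA peaks had a WT partner (31.6% against 12.9%). In liver 18 of 29 WT peaks (62.1% against 49.1%) and 18 of 40 ERRα 3SA peaks (45.0% against 34.2%) did. The Wilson intervals were 27.6–62.7% and 19.1–47.5% for the WT and ERRα 3SA muscle lists, and 44.0–77.3% and 30.7–60.2% for the liver lists. Of complex I peaks 62.8, 42.9, 91.4 and 56.1% were shared, and of mitochondrial ribosome peaks 31.8, 23.0, 53.5 and 34.9%. Sharing went with position: within 1000 bp 10 of 15, 9 of 15, 11 of 14 and 11 of 18 import peaks were shared, beside 29.6, 24.5, 58.8 and 38.0% of all peaks there. Beyond it 2 of 12, 3 of 23, 7 of 15 and 7 of 22 were. Beyond 1000 bp these shares were 16.7, 13.0, 46.7 and 31.8%, beside 21.3, 10.5, 46.6 and 33.1% of all such peaks. The shared import peaks were also the better ranked, with medians of 8.63, 4.05, 12.8 and 11.5% of the list. Import peaks without a partner had medians of 66.4, 38.7, 45.2 and 44.8%. This was not particular to import genes, since shared peaks ranked better over all peaks within 20000 bp in each list. In WT muscle, ERRα 3SA muscle and WT liver, the medians of all shared peaks were 16.0, 8.67 and 24.9%. All peaks without a partner had 40.2, 38.7 and 57.4% there.

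Genes and sites did not always go together. In muscle 15 import genes were named in both genotypes, 4 in WT alone (*Hspe1*, *Timm21*, *Timm23* and *Timm9*) and 10 in ERRα 3SA alone (*Hspd1*, *Timm29*, *Timm44*, *Timm50*, *Timm8a1*, *Timm8a2*, *Tomm20l*, *Tomm34*, *Tomm6* and *Tomm7*). The 15 were 51.7% of the import genes named in either list, beside 44.3% of all genes named in either. Over all genes, 6396 were named in both muscle lists, 2264 in WT alone and 5786 in ERRα 3SA alone. Of the 15, 10 shared a site by the 300 bp centre rule, and *Pam16*, *Timm10b*, *Timmdc1*, *Tomm20* and *Tomm6os* did not. The *Tomm6os* intervals of the genotypes overlap. In liver 20 genes were named in both genotypes, 0 in WT alone and 6 in ERRα 3SA alone (*Pmpcb*, *Timm21*, *Timm22*, *Timm29*, *Timm44* and *Tomm34*). The 20 were 76.9% of those in either list, beside 49.7% of all genes. Over all genes, 5626 were named in both liver lists, 1889 in WT alone and 3811 in ERRα 3SA alone. Of the 20, 17 shared a site by this rule, and *Hspe1*, *Tomm20* and *Tomm5* did not. The *Hspe1* and *Tomm5* intervals of the genotypes overlap. How many of all genes named in both genotypes share a site is not given here, for either tissue. Between tissues, 15 genes were named in both WT lists (62.5% of those in either, beside 34.8% of all genes) and 18 in both ERRα 3SA lists (54.5% beside 44.9%).

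Counted by name, 12 of 33 import genes were in all 4 lists, or 36.4%, against 18.1% of the 16988 genes. Sites shared by all 4 lists made up 8 of 27, 7 of 38, 9 of 29 and 8 of 40 import peaks, beside 8.46, 4.72, 10.1 and 7.04% of all peaks. Among complex I peaks the shares were higher, at 44.2, 30.2, 57.1 and 33.3%, and among mitochondrial ribosome peaks 18.2, 11.5, 20.9 and 11.1%. The import sites in all 4 lists belonged to *Hspa9*, *Mtx1*, *Mtx2*, *Samm50*, *Timm10*, *Timm17a*, *Tomm70a* and *Timm23*, the last under another name in 1 list, and in WT liver also *Tomm40*. Counted by the gene's own RefSeq start, with the annotated name set aside, 13 of 38 import genes had a peak centre within 1000 bp in all 4 lists (34.2%), against 3.57% of all protein-coding genes. *Hspd1*, *Hspe1*, *Timm23* and *Timm8b* join by this count.

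At the 12 shared muscle sites the ERRα 3SA rank number was lower, that is better, at 9, although the ERRα 3SA list is longer. Over all 3046 shared muscle pairs within 20000 bp it was better at 37.6%. The 3 exceptions were *Timm10* (2194 to 19604), *Pmpcb* (6260 to 19604) and the *Samm50* site 11166 bp downstream (6260 to 32824). *Tomm70a* moved furthest the other way, from 9931 to 2394. As a percentage of the list, which favours the longer list, 9 of 12 import sites were better in ERRα 3SA muscle, beside 71.4% of all pairs.

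In liver the ERRα 3SA rank number was better at 9 of 18 shared sites, beside 46.2% of 5512 pairs, and the percentage at 10 of 18, beside 64.5%. *Hspa9* (1107 to 378) and *Samm50* (718 to 576) had the better rank in ERRα 3SA liver, and *Mtx2* (114 to 286), *Timm10* (1107 to 1531), *Mtx1* (1165 to 1597) and *Timm17a* (1549 to 3426) in WT liver. Without replicates, none of these shifts can be set against the spread between libraries.

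**Figure D5:**
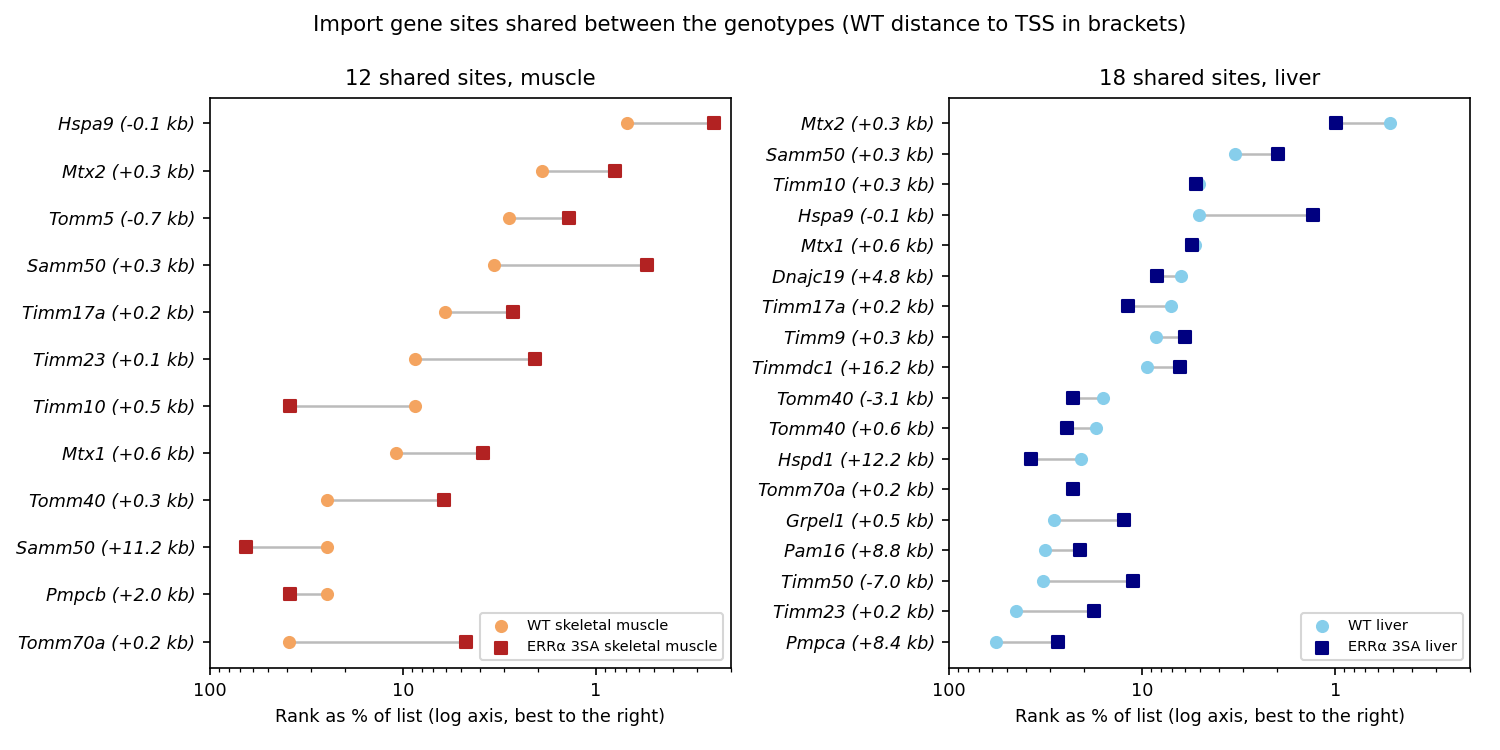
Import gene sites shared by the WT (circles) and ERRα 3SA (squares) lists, as rank in percent of the list (x axis, log, best to the right), with 12 sites in muscle and 18 in liver and the WT distance to the TSS beside each name. Squares lie to the right at 9 of 12 sites in muscle and at 10 of 18 in liver.

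TCAAGGTCA in the central 300 bp was found in 2 of 27 WT muscle import peaks (7.41%, against 4.45% of all peaks within 20000 bp) and 2 of 38 ERRα 3SA ones (5.26% against 4.86%). In liver it was found in 7 of 29 for WT (24.1% against 15.2%) and 6 of 40 for ERRα 3SA (15.0% against 14.9%). Anywhere in the interval it was found in 4, 6, 11 and 9 peaks, or 14.8, 15.8, 37.9 and 22.5%, beside 7.44, 8.27, 21.4 and 20.4% of all peaks. In WT muscle the central matches were those of *Timm10* and *Timm9*, and in ERRα 3SA muscle those of *Timm10* and *Samm50*. With 2 to 7 central matches per list, each Wilson interval of the central share, for instance 2.06–23.4% in WT muscle, contains the value of all peaks. For the whole interval, that of WT liver (22.7–56.0%) lies above the value of all peaks and the other 3 contain theirs. The import intervals of WT liver were wider, with a median of 663 bp against 461 bp over all peaks within 20000 bp. The whole-interval share was not adjusted for width.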

How the data were processed

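ERRα ChIP-seq was analysed in 4 libraries, 1 per genotype and tissue; the 4 input libraries served the authors as controls and are not analysed here. The authors trimmed reads (Trimmomatic 0.36), aligned them to mm10 (BWA 0.7.12), removed duplicates (Picard 2.0.1), called peaks against input (MACS2 2.1.1.20160309) and annotated the nearest TSS (HOMER 4.9.1). The deposited lists give, per interval, a peak score with no stated scale, a signed distance to the TSS, and the CpG and GC content as a fraction, which matched the GRCm38.p6 genome in all but 0 to 2 intervals per list. Read depth is not given in the sources used here.

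Python 3.11.15 with pandas 2.3.3 was used. Peaks were ranked by score, ties at the best rank; centres within 300 bp were shared; TCAAGGTCA was searched in the central 300 bp; Wilson intervals (95%) came from scipy 1.17.1. No test was made, since each group is 1 library. The matching and motif steps were tested on simulated data. Members and gene lists were chosen with earlier results of these data known. Named in full were genes whose site all 4 lists share, the 3 best-ranked of each list and those in 1 genotype of both tissues; Timm8b was chosen after its values were seen. Alternatives varied distance, score, sharing, ties, motif, list length and gene assignment.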

Additional observations from a re-analysis of the deposited data

Results flagged for a closer look

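Import genes with a peak within 1000 bp of the TSS changed in opposite directions between the genotypes: the number, ERRα 3SA minus WT, was -2 in muscle (15 to 13) and 2 in liver (14 to 16). The difference was not tested, since each list is 1 library. Over all protein-coding genes the share rose in both tissues, from 13.7 to 16.2% in muscle and from 9.26 to 14.4% in liver. In muscle 6 import genes left (*Hspe1*, *Pmpcb*, *Timm10b*, *Timm23*, *Timm9* and *Tomm20*) and 4 joined (*Hspd1*, *Timm8a1*, *Tomm20l* and *Tomm34*). Over all genes named in the muscle lists within 1000 bp, 1926 left and 2576 joined. The *Timm23* site was still present in ERRα 3SA muscle, annotated to *Parg*. *Hspe1* and *Hspd1* exchanged the name of their shared promoter, and the *Timm8a1* peak is that of the chromosome 10 copy. The WT muscle peaks of *Pmpcb*, *Timm10b* and *Tomm20* within 1000 bp were at the lowest score.

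By gene name within 20000 bp, 1 import gene, *Timm21*, was lost in ERRα 3SA muscle and gained in ERRα 3SA liver. The sites differ (-3897 and -13436 bp from the TSS in WT muscle, -514 bp in ERRα 3SA liver), and this was not tested. Over all genes, 2264 were named in muscle in WT alone and 3811 in liver in ERRα 3SA alone. The number of all genes with both is not given here, so this count cannot be set against a general rate.

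Beyond 20000 bp, outside the comparisons above, 1 site annotated to an import gene was called in all 4 lists. It lay at -21812 bp from the *Dnajc19* TSS (median over the lists), spanning chr3:34102745-34103560, and ranked 2872 (WT) and 7851 (ERRα 3SA) in muscle and 236 (WT) and 208 (ERRα 3SA) in liver, or 11.3, 15.5, 1.08 and 0.716% of the list.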

How the results depend on the processing

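Under the other settings tried, 15 values were classed as moved and 57 were not, but the latter were not all close to the reported ones. The share of import peaks with TCAAGGTCA was 7.41, 5.26, 24.1 and 15.0% in the central 300 bp. Over the whole interval it was 14.8, 15.8, 37.9 and 22.5%, and none of these was classed as moved. The number of import genes named in a list (19, 25, 20 and 26 in WT muscle, ERRα 3SA muscle, WT liver and ERRα 3SA liver) fell to 10 and 12 in the muscle lists with a score of at least 50, and to 4, 9, 12 and 14 in the 4 lists with a score of at least 100. Within 1000 bp it was 13 in ERRα 3SA muscle and 16 in ERRα 3SA liver. With all lists held to 21813 peaks, ERRα 3SA muscle held 15 and WT muscle 17. The WT muscle cut falls among peaks tied at the lowest score, so this order depends on how ties are broken. By the genes' own RefSeq starts, the 4 lists held 30, 34, 30 and 34. The median best rank in ERRα 3SA muscle was 3.86% within 1000 bp. The share of peaks with a partner in the other genotype was 41.4% (WT) and 30.0% (ERRα 3SA) in liver with centres within 100 bp, and 63.6% in WT muscle and 80.0% in WT liver when both lists were held to scores of 50 or more. The causes were not tested beyond the fewer peaks each setting keeps or adds. A count without *Timmdc1*, *Tomm6os* and the chromosome 10 copy of *Timm8a1*, chosen after seeing the data, changed none of the 4 counts by over 1.5 times. No paired analysis was possible because each group is 1 library, and no replicate could be left out. Depth limits are unknown: the lists hold no read numbers.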
